A study of Mus musculus with 9 samples.

Results

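The cadherin superfamily outside the desmosome was followed through 9 arrays of HC11 cells, a mammary epithelial cell line derived from BALB/c mice. It comprised the classical cadherins, the other genes named Cdh, the protocadherins, the Fat and Dachsous cadherins and the flamingo cadherins of the Celsr genes. A gene was a member when its symbol on the array began with Pcdh, or with Cdh, Fat, Dchs or Celsr and a digit, so that membership rested on the name and not on any measured value. The family itself was chosen with earlier results of these data known. The rule gave 67 genes. Of these, 61 could be tested, among 18856 genes tested in all. The other 6, Cdh8, Cdh26, Celsr3, Pcdh8, Pcdha10 and Pcdhb10, had the same value on all 9 arrays. Cdh9 and Dchs1 were not analysed here.

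The arrays comprised 3 of FoxF1 cells, 3 of NFI-C2 cells and 3 of wild type cells. FoxF1 cells were HC11 cells transfected with the forkhead transcription factor FoxF1. NFI-C2 cells were HC11 cells transfected with NFI-C2, a nuclear factor I transcription factor. The study used a stable form of NFI-C2, named NFI-C2S. The controls have no construct named in the labels, which call them wild type, whereas the methods call them vector controls. All cells were grown in RPMI medium with fetal calf serum, insulin and EGF, and the RNA came from pools of cells. The sources do not say whether each pool had its own transfection, so that p-values measure the spread between these RNA samples, which may be technical. Labels and methods differ in the RNA extraction and in the EGF dose.

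The arrays were Affymetrix Mouse Gene ST arrays, and each value is a log2 signal of 1 transcript cluster, a set of probes for 1 transcript. The deposited values of every cluster have a median of 0 over the 9 arrays, so a value tells how an array stood relative to the others and not how strongly a gene was expressed. No detection calls came with them, and whether a low group lay at the array background is unknown. In 19 of the 61 genes at least 2 arrays shared the lowest value. Genes were compared with limma and Benjamini-Hochberg adjustment over all 18856 genes, and are named higher or lower where the adjusted p was under 0.05. Values over all clusters varied most on the FoxF1 arrays (SD 0.528 to 0.539), against 0.211 to 0.243 on the NFI-C2 arrays and 0.174 to 0.183 on the wild type arrays. Against wild type cells, the transfected factors themselves were not called higher. Foxf1a lay between 0.09 and 0.32 on the FoxF1 arrays and between -0.07 and 0.01 on the wild type arrays (limma adjusted p = 0.353), and Nfic between 0.00 and 0.19 on the NFI-C2 arrays and between 0.00 and 0.21 on the wild type arrays (limma adjusted p = 0.7601). On the NFI-C2 arrays Foxf1a lay between -1.46 and -0.91, lower than in wild type cells (log2 difference -1.24, limma adjusted p = 0.0007841). It was higher in FoxF1 than in NFI-C2 cells (log2 difference 1.44, limma adjusted p = 9.116e-05). Nfic differed by -0.21 in FoxF1 against NFI-C2 cells (limma adjusted p = 0.04657). Whether the probes of these clusters lie within the transfected constructs is not given, so that these values do not check the labels.

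Cadherins are calcium-dependent adhesion receptors whose extracellular repeats bind cadherins on the neighbouring cell. Classical cadherins hold adherens junctions together and reach the actin cytoskeleton through catenins. Mammary luminal cells are known for E-cadherin and basal cells for P-cadherin, while N-cadherin is typical of mesenchymal and neural cells. Fat and Dachsous cadherins bind each other and, with the flamingo cadherins, orient cells within the plane of a tissue. Protocadherins lack the catenin-binding tail of classical cadherins and are best known from neurons.

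In FoxF1 cells 15 of the 61 genes were higher and 8 were lower than in wild type cells, and 38 were not called. Over all genes tested, 20.8% were higher and 19.1% lower, 39.9% in all, so the share of members called was near that of all genes. The arrays of FoxF1 cells stood apart from those of wild type cells, with no overlap, for 26 members and for 46.0% of all genes. With a difference of at least 1.5-fold as well, 10 were higher and 8 lower, where 7.12% of all genes were higher and 8.97% lower. Of the 61 members 29.5% passed both criteria, against 16.1% of all genes. The family was chosen with earlier results of these data known, so this difference in shares is not a test. Of the 39 members outside the protocadherin clusters, 38.5% passed both criteria. Of the 22 clustered protocadherins tested, 3 did. The median log2 difference was 0.03 over the 61 members and 0.01 over all genes.

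NFI-C2 cells had 7 members higher and 6 lower than wild type cells, and 48 not called. Of all genes, 9.17% were higher and 12.5% lower, 21.6% in all. With the 1.5-fold criterion, 5 members were higher and 4 lower, against 2.37% and 2.72% of all genes, 5.09% together. No overlap with wild type was seen for 17 members and for 33.3% of all genes. Here the median log2 difference was 0.03 over the members and 0.00 over all genes. FoxF1 cells differed from NFI-C2 cells in 14 members that were higher and 10 that were lower, where 23.5% and 19.6% of all genes were, 43.1% together. Arrays of the 2 lines did not overlap for 25 members, and for 47.8% of all genes. With the 1.5-fold criterion 8 were higher and 8 lower in that comparison, against 9.22% and 9.57% of all genes.

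Both comparisons with wild type use the same 3 wild type arrays, and are given side by side. Of the 23 members called in FoxF1 cells, 5 that were higher there were lower in NFI-C2 cells (Cdh2, Cdh13, Fat4, Pcdh11x and Pcdh18), and 3 that were lower there were higher in NFI-C2 cells (Cdh3, Fat2 and Pcdh7). Pcdhb20, Pcdhb21 and Pcdhb22 were higher in both lines and Celsr1 was lower in both. Another 11 were called in FoxF1 cells and not in NFI-C2 cells, and Cdh18 was called against wild type in NFI-C2 cells alone. All 11 were also called in the direct comparison of FoxF1 with NFI-C2 cells, in the direction seen against wild type. That comparison uses the same FoxF1 arrays and the same estimate of spread, so it is not separate support. On the values as deposited, the largest direct differences were -5.96 for Cdh1, -4.77 for Cdh3 and 4.91 for Pcdh19 on the log2 scale. The 14 members higher in FoxF1 than in NFI-C2 cells were Cdh2, Cdh13, Cdh17, Cdh24, Fat4, Pcdh9, Pcdh10, Pcdh11x, Pcdh18, Pcdh19, Pcdhb17, Pcdhb19, Pcdhb21 and Pcdhb22, and the 10 lower were Cdh1, Cdh3, Cdh18, Celsr1, Celsr2, Fat1, Fat2, Pcdh1, Pcdh7 and Pcdhb12.

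The size of these differences depended on scaling. Quantile normalization, run here on the centred values, gives every array the same spread, and the FoxF1 arrays had the widest. By construction it narrows the values of the FoxF1 arrays and widens those of the others. Under it 15 of the 23 FoxF1 differences called against wild type changed by over 1.5 times on the log2 scale, 18 of the 23 becoming smaller, and 6 of the 13 NFI-C2 differences changed that much, all 13 becoming larger. NFI-C2 cells then had 10 members higher and 4 lower. Values against wild type that changed so are given with the genes, and none of these differences changed direction. Of the 24 differences called between FoxF1 and NFI-C2 cells, 11 changed that much and 19 became smaller. Direct differences were then -3.12 for Cdh1, -3.23 for Cdh3, 3.73 for Pcdh19, 3.34 for Fat4 and 3.32 for Cdh2. The direct calls of Cdh24, Pcdhb17, Pcdhb19 and Pcdhb22 were lost. The changed values do not show which scaling is nearer the truth.

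**Figure D1:**
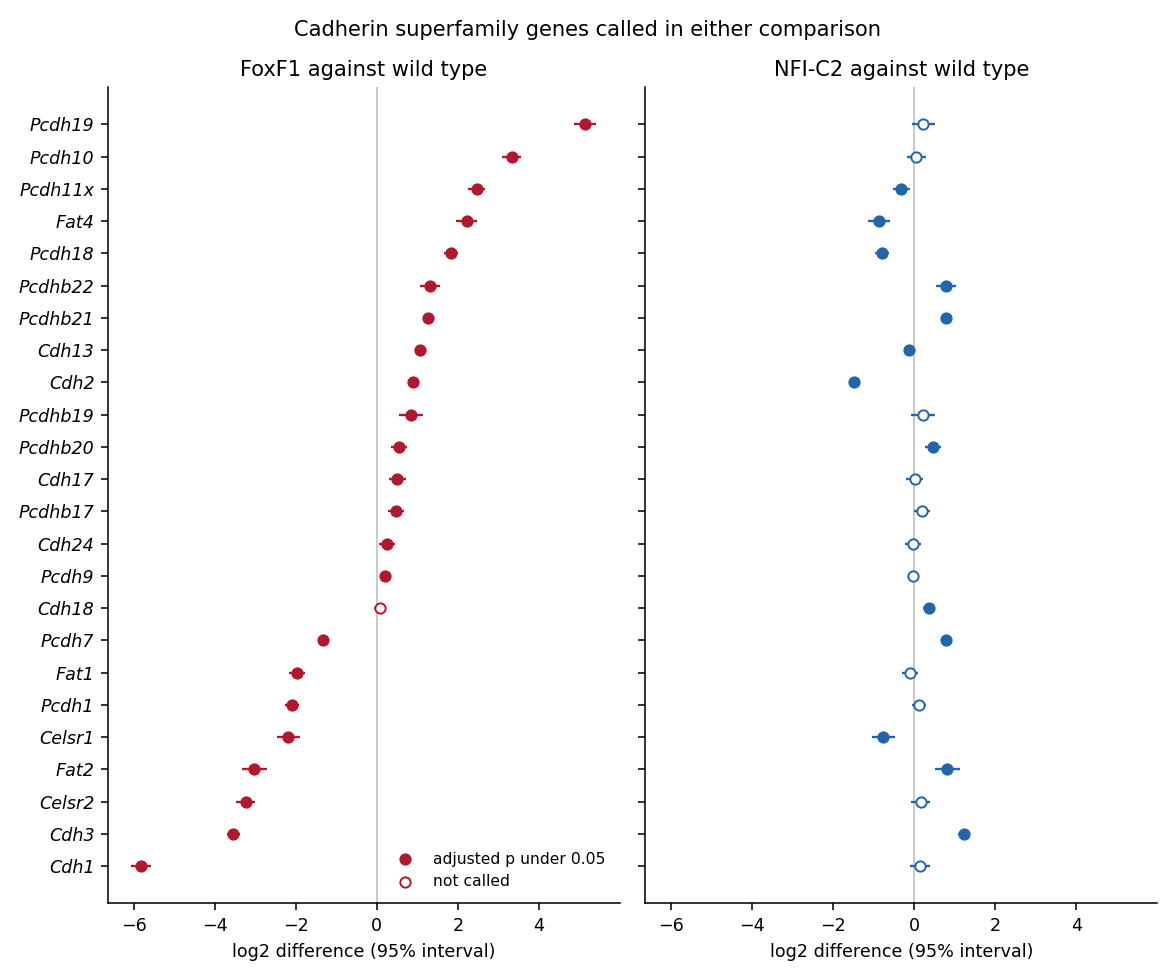
Log2 difference (x axis) of the 24 genes called in either comparison with wild type, FoxF1 cells at the left and NFI-C2 cells at the right, as points with 95% intervals, filled where the adjusted p was under 0.05. The FoxF1 differences run from -5.82 for Cdh1 to 5.14 for Pcdh19, and the NFI-C2 differences from -1.49 for Cdh2 to 1.23 for Cdh3.

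Among the type I classical cadherins, E-cadherin and P-cadherin fell in FoxF1 cells and N-cadherin rose. Cdh1, the gene of E-cadherin, the main adhesion molecule of epithelial adherens junctions, had values of -5.70, -5.72 and -6.09 on the FoxF1 arrays, 0.21, 0.11 and 0.07 on the NFI-C2 arrays, and 0.00, -0.06 and 0.02 on the wild type arrays. All FoxF1 arrays lay far below the other 6, and the NFI-C2 arrays lay just above the wild type arrays without overlap. Cdh1 fell by 5.82 on the log2 scale in FoxF1 cells (SE 0.101, limma adjusted p = 1.267e-08), to 0.0177 of the wild type signal, and the difference was -2.93 with quantile normalization. In NFI-C2 cells its difference was 0.14 (95% interval -0.09 to 0.38, limma adjusted p = 0.426).

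Cdh3, the gene of P-cadherin, a cadherin of basal and myoepithelial cells, lies next to Cdh1. In the array annotation, which uses the NCBIM37 build, Cdh3 occupies chromosome 8 from 109034791 to 109080808 and Cdh1 from 109127268 to 109194146, on the same strand and 46459 bases apart. Cdh3 measured -3.52, -3.58 and -3.51 on the FoxF1 arrays, 1.38, 1.22 and 1.09 on the NFI-C2 arrays and 0.00 on each wild type array. The FoxF1 arrays were lowest and the NFI-C2 arrays highest, with no overlap between any groups. Cdh3 fell by 3.54 in FoxF1 cells (SE 0.066, limma adjusted p = 1.619e-08) and rose by 1.23 in NFI-C2 cells (SE 0.066, limma adjusted p = 1.914e-05), a 2.35-fold difference. These neighbours therefore shared the fall in FoxF1 cells, and Cdh3 alone of the pair was called in NFI-C2 cells. Quantile normalization left a fall of Cdh3 in FoxF1 cells of -1.63. The 3 equal wild type values of Cdh3 lower the spread that enters its SE.

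Cdh2 encodes N-cadherin, and its order of groups was the opposite of that of Cdh3. Its values were 0.81, 0.97 and 0.87 on the FoxF1 arrays, -1.49, -1.47 and -1.55 on the NFI-C2 arrays and 0.01, -0.03 and 0.00 on the wild type arrays. Every FoxF1 array was above and every NFI-C2 array below the wild type arrays. Cdh2 was 1.86-fold higher in FoxF1 cells (log2 difference 0.89, SE 0.042, limma adjusted p = 1.693e-06), and fell to 0.355 of the wild type signal in NFI-C2 cells (log2 difference -1.49, SE 0.042, limma adjusted p = 1.135e-06). Set directly against each other, the 2 lines differed 5.23-fold, with FoxF1 cells higher. Quantile normalization gave Cdh2 differences of 0.57 in FoxF1 cells and -2.75 in NFI-C2 cells. Cdh4, the gene of R-cadherin, and Cdh15, the gene of M-cadherin of muscle, were not called in any comparison. Cdh4 was 0.00 on all FoxF1 and NFI-C2 arrays and reached 0.01 on 1 wild type array. Cdh15 differed by -0.15 in FoxF1 cells (95% interval -0.32 to 0.03) and by -0.10 in NFI-C2 cells (95% interval -0.28 to 0.07). Both values rested on wild type replicate 1, at 0.28, and without it were -0.06 and -0.01. Quantile normalization gave -0.22 and -0.19.

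Markers of cell types were counted as well. Of all genes, 20.8% were higher and 19.1% lower in FoxF1 cells, and 9.17% and 12.5% in NFI-C2 cells. Of 7 epithelial markers tested, 6 were lower in FoxF1 cells and 0 were higher, and their mean value per array was -3.56 to -3.04 on the FoxF1 arrays and 0.61 to 0.66 on the wild type arrays. NFI-C2 cells had 1 epithelial marker higher and 2 lower, with array means of 0.21 to 0.26. Of 9 fibroblast markers, 5 were higher and 1 was lower in FoxF1 cells. The lower one was Postn (log2 difference -5.55, limma adjusted p = 2.834e-06). Array means of the fibroblast markers were 0.02 to 0.58 on the FoxF1 arrays and -0.10 to -0.05 on the wild type arrays. Of 5 endothelial markers 1 was higher and 1 lower in FoxF1 cells and 1 was higher in NFI-C2 cells, and of 5 immune markers 1 was higher in FoxF1 cells and 0 were called in NFI-C2 cells. In centred values no marker can be shown to be at 0. In bulk RNA, fewer cells of a type and less RNA per cell cannot be told apart, and the part of these markers in the cadherin results was not tested.

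Of the 4 Cdh genes tested outside the classical groups, 2 were higher and 0 lower in FoxF1 cells, where 39.9% of all genes were called. In NFI-C2 cells 1 was lower, where 21.6% of all genes were called. Cdh13, the gene of T-cadherin, which is held to the membrane by a lipid anchor and has no intracellular tail, was 1.07, 1.05 and 1.12 on the FoxF1 arrays, -0.08, -0.23 and -0.10 on the NFI-C2 arrays and within 0.01 of 0 on the wild type arrays. FoxF1 arrays were separated upward from all others. Cdh13 was 2.11-fold higher in FoxF1 cells (log2 difference 1.08, SE 0.040, limma adjusted p = 4.851e-07), or 0.67 with quantile normalization. In NFI-C2 cells it fell by 0.14 (limma adjusted p = 0.0456), a call at the edge of the threshold that was lost on leaving out any single array other than NFI-C2 replicates 1 and 2, with an adjusted p of 0.116 without wild type replicate 3. Cdh17, the gene of LI-cadherin of liver and intestine, was 0.54, 0.67 and 0.26 on the FoxF1 arrays and -0.01 on each wild type array, 1.42-fold higher (log2 difference 0.50, limma adjusted p = 0.002689), or 0.32 with quantile normalization.

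Of the 11 type II classical cadherins tested, 1 was higher and 0 lower in FoxF1 cells, where 39.9% of all genes were called. In NFI-C2 cells the counts were the same, where 21.6% of all genes were called. The gene in FoxF1 cells was Cdh24, at 0.12, 0.16 and 0.43 on the FoxF1 arrays and 0.00, -0.03 and 0.00 on the wild type arrays (log2 difference 0.25, limma adjusted p = 0.04689). That call was lost on leaving out any single array other than FoxF1 replicate 1, with a difference of 0.15 without FoxF1 replicate 3. In NFI-C2 cells the gene was Cdh18, at 0.13, 0.34 and 0.34 on the NFI-C2 arrays and -0.05, -0.11 and -0.10 on the wild type arrays. Cdh18 was 1.28-fold higher (limma adjusted p = 0.003945). This rests on a cluster of 17 probes, while the other 2 Cdh18 clusters, of 56 and 25 probes, had the same value on all 9 arrays and could not be tested. Without NFI-C2 replicate 1, its FoxF1 difference of 0.07 passed the threshold as well (adjusted p = 0.0496). Cdh5, the VE-cadherin of endothelial cells, and Cdh11, the cadherin of osteoblasts and mesenchyme, differed by 0.00 and 0.03 in FoxF1 cells and were not called. Cdh10, Cdh12, Cdh20 and Cdh22 each had the same value on 8 arrays, and whether they lay at the array background is unknown.

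**Figure D2:**
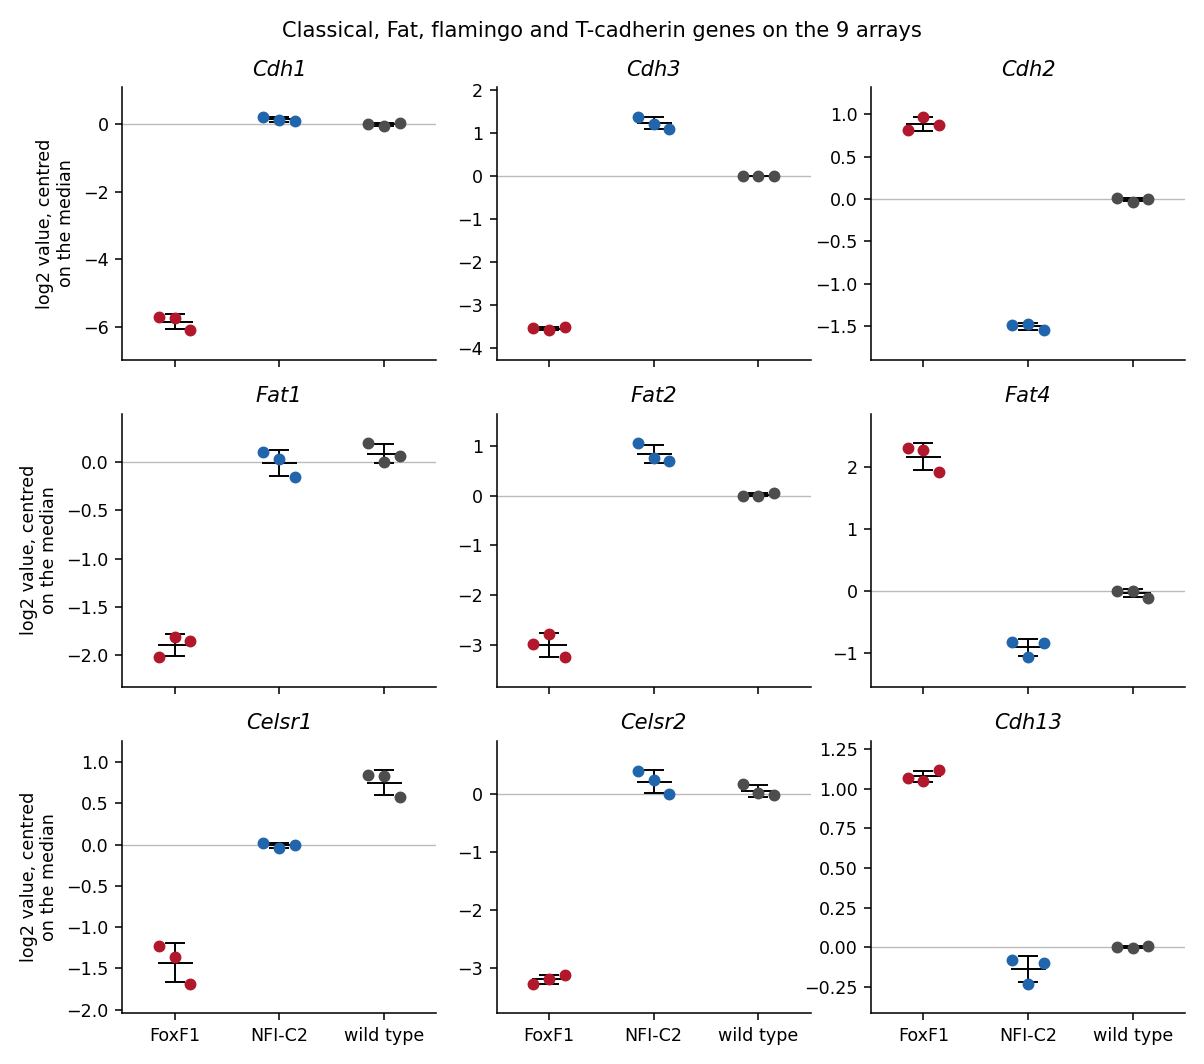
Values of 9 genes of classical, Fat, flamingo and T-cadherin on the 3 FoxF1, 3 NFI-C2 and 3 wild type arrays (y axis, log2 value centred on the median of 9 arrays, each panel on its own scale), with the group mean and SD as bars. Cdh1 stands between -6.09 and -5.70 on the FoxF1 arrays, and Cdh2 and Fat4 are highest on the FoxF1 arrays and lowest on the NFI-C2 arrays.

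The 4 Fat cadherins, giant receptors related to the Drosophila tumour suppressor fat, did not move as one. In FoxF1 cells Fat4 rose, Fat1 and Fat2 fell, and Fat3 was not called. Fat4, the partner of Dchs1 in planar polarity, had 2.32, 2.27 and 1.93 on the FoxF1 arrays, -0.83, -1.07 and -0.84 on the NFI-C2 arrays, and 0.00, 0.00 and -0.12 on the wild type arrays. The groups stood apart with FoxF1 on top and NFI-C2 at the bottom. Fat4 was 4.63-fold higher in FoxF1 cells (log2 difference 2.21, SE 0.113, limma adjusted p = 2.662e-06) and fell to 0.546 of the wild type signal in NFI-C2 cells (log2 difference -0.87, SE 0.113, limma adjusted p = 0.001377), or -1.78 with quantile normalization.

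Fat2, whose Drosophila relative acts in migrating epithelial cells, showed the reverse order. It had -2.98, -2.79 and -3.25 on the FoxF1 arrays, 1.05, 0.75 and 0.71 on the NFI-C2 arrays, and 0.00, -0.01 and 0.05 on the wild type arrays, without overlap. Fat2 fell by 3.02 on the log2 scale in FoxF1 cells (SE 0.129, limma adjusted p = 1.029e-06) and was 1.77-fold higher in NFI-C2 cells (log2 difference 0.82, SE 0.129, limma adjusted p = 0.003407). FoxF1 cells lay below NFI-C2 cells by a log2 difference of -3.84. Fat1, which organises actin at cell contacts, was -2.02, -1.81 and -1.85 on the FoxF1 arrays, 0.09, 0.03 and -0.16 on the NFI-C2 arrays, and 0.19, 0.00 and 0.06 on the wild type arrays. Its FoxF1 arrays were lowest, while NFI-C2 and wild type arrays overlapped. Fat1 fell by 1.97 in FoxF1 cells (SE 0.085, limma adjusted p = 1.108e-06), and differed by -0.09 in NFI-C2 cells (95% interval -0.29 to 0.11). In FoxF1 cells quantile normalization gave -1.44 for Fat2 and -1.06 for Fat1.

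For Fat3 the annotation held 15 clusters, and no value of any of them exceeded 0.276 in size. The cluster with most probes differed by 0.03 in FoxF1 cells (95% interval -0.05 to 0.11) and by 0.03 in NFI-C2 cells (95% interval -0.05 to 0.11). Dchs2, a Dachsous cadherin, was 0.31, 0.15 and 0.00 on the FoxF1 arrays and 0.05, 0.00 and 0.00 on the wild type arrays. The groups overlapped, and the difference of 0.14 was not called (limma adjusted p = 0.166). It rested on which FoxF1 array was kept, since without FoxF1 replicate 3 the difference was 0.21 (adjusted p = 0.0106).

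Both flamingo cadherins tested fell in FoxF1 cells. Celsr2 had -3.27, -3.19 and -3.11 on the FoxF1 arrays, 0.38, 0.24 and 0.00 on the NFI-C2 arrays, and 0.16, 0.00 and -0.03 on the wild type arrays. FoxF1 arrays lay below all others and the other groups overlapped. Celsr2 fell by 3.24 (95% interval -3.47 to -3.00, limma adjusted p = 1.944e-07), to 0.106 of the wild type signal, and its NFI-C2 difference was 0.16 (95% interval -0.07 to 0.40). The FoxF1 difference of Celsr2 was -1.56 with quantile normalization. Celsr1, the flamingo cadherin that orients hair follicles in mouse skin, was -1.23, -1.37 and -1.69 on the FoxF1 arrays, 0.02, -0.04 and 0.00 on the NFI-C2 arrays, and 0.85, 0.83 and 0.58 on the wild type arrays. It was the member called lower in both lines, and the 3 groups did not overlap. Celsr1 fell by 2.18 in FoxF1 cells (SE 0.120, limma adjusted p = 4.03e-06) and by 0.76 in NFI-C2 cells (SE 0.120, limma adjusted p = 0.003507). FoxF1 cells were lower than NFI-C2 cells by 1.42 on the same scale (limma adjusted p = 3.769e-05), and by 0.71 after quantile normalization.

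Of 12 non-clustered protocadherins, 5 were higher and 2 lower in FoxF1 cells, and 1 was higher and 2 were lower in NFI-C2 cells. Over all genes, 20.8% were higher and 19.1% lower in FoxF1 cells, and 9.17% and 12.5% in NFI-C2 cells. Pcdh19, a protocadherin of the X chromosome known from an epilepsy of girls in humans, was 4.87, 5.01 and 4.81 on the FoxF1 arrays, -0.01, 0.00 and -0.04 on the NFI-C2 arrays, and 0.02, -0.49 and -0.26 on the wild type arrays. The FoxF1 arrays were far above the rest. Pcdh19 was 35.2-fold higher in FoxF1 cells (log2 difference 5.14, SE 0.120, limma adjusted p = 4.725e-08). Its NFI-C2 difference was 0.22 (95% interval -0.06 to 0.50, limma adjusted p = 0.273), and became 0.36 without wild type replicate 1 (adjusted p = 0.0363).

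Pcdh10, which recruits actin regulators to cell contacts, had 3.22, 3.42 and 3.13 on the FoxF1 arrays, -0.03, 0.13 and -0.17 on the NFI-C2 arrays, and -0.04, 0.00 and -0.18 on the wild type arrays. Again the FoxF1 arrays stood apart and the other groups overlapped. Pcdh10 was 10.1-fold higher in FoxF1 cells (log2 difference 3.33, 95% interval 3.10 to 3.57, limma adjusted p = 1.636e-07), and differed by 0.05 in NFI-C2 cells (95% interval -0.19 to 0.28). Pcdh18 was 1.92, 1.92 and 1.71 on the FoxF1 arrays, -0.70, -0.71 and -0.88 on the NFI-C2 arrays, and -0.02, 0.11 and 0.00 on the wild type arrays. It followed the order of Cdh2 and Fat4, with FoxF1 highest and NFI-C2 lowest and no overlap. Pcdh18 was 3.53-fold higher in FoxF1 cells (limma adjusted p = 7.268e-07) and fell to 0.578 of the wild type signal in NFI-C2 cells (limma adjusted p = 0.0002749). These log2 differences of 1.82 and -0.79 were 1.21 and -1.58 with quantile normalization.

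Pcdh11x, the other X-linked protocadherin called, was 2.32, 2.42 and 2.38 on the FoxF1 arrays, -0.25, -0.52 and -0.45 on the NFI-C2 arrays, and -0.25, 0.00 and 0.00 on the wild type arrays. FoxF1 arrays were highest, and NFI-C2 arrays overlapped with wild type replicate 1. Pcdh11x was 5.50-fold higher in FoxF1 cells (log2 difference 2.46, SE 0.091, limma adjusted p = 4.61e-07). Its fall by 0.32 in NFI-C2 cells (limma adjusted p = 0.04252) was lost on leaving out any single array other than NFI-C2 replicate 1 or wild type replicate 1, with a difference of -0.26 without NFI-C2 replicate 2 (adjusted p = 0.133). Pcdh9 was 0.28, 0.13 and 0.21 on the FoxF1 arrays and 0.00 on each wild type array, 1.16-fold higher (log2 difference 0.21, limma adjusted p = 0.00275), or 0.12 with quantile normalization.

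Pcdh7 and Pcdh1 fell. Pcdh7, also called NF-protocadherin in frogs, was -1.37, -1.27 and -1.35 on the FoxF1 arrays, 0.79, 0.69 and 0.88 on the NFI-C2 arrays, and 0.00, 0.02 and 0.00 on the wild type arrays. This is the order of Cdh3 and Fat2, with no overlap. Pcdh7 fell to 0.396 of the wild type signal in FoxF1 cells (log2 difference -1.34, SE 0.049, limma adjusted p = 4.652e-07) and was 1.72-fold higher in NFI-C2 cells (limma adjusted p = 4.797e-05). Pcdh1, which is expressed in airway epithelium, was -2.13, -2.01 and -2.08 on the FoxF1 arrays, 0.29, 0.00 and 0.13 on the NFI-C2 arrays, and 0.10, 0.00 and -0.03 on the wild type arrays. FoxF1 arrays were lowest and the others overlapped, and Pcdh1 fell by 2.10 (SE 0.076, limma adjusted p = 4.071e-07). After quantile normalization the FoxF1 differences were -0.68 for Pcdh7 and -1.04 for Pcdh1. Pcdh12, Pcdh15, Pcdh17, Pcdh20 and Pcdh21 were not called, and Pcdh21 is now named Cdhr1.

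**Figure D3:**
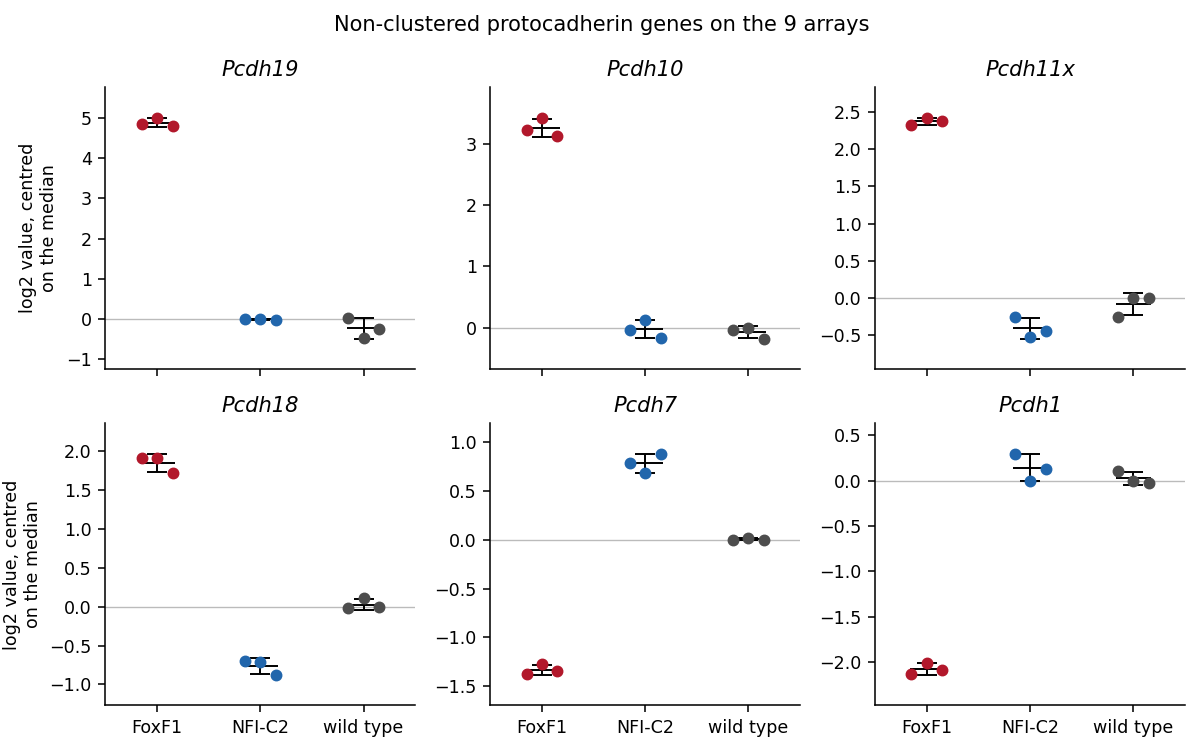
Values of 6 non-clustered protocadherin genes on the 3 FoxF1, 3 NFI-C2 and 3 wild type arrays (y axis, log2 value centred on the median of 9 arrays, each panel on its own scale), with the group mean and SD as bars. Pcdh19 reaches 5.01 on a FoxF1 array, and Pcdh18 and Pcdh7 order the 3 groups in opposite ways.

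For members that moved with FoxF1, promoter sequence was read from RefSeq (build GRCm38.p6, not the build of the array annotation), as the 250 bases before the annotated gene start, written along the gene's strand. Of the 61 members tested, 24 had a promoter in the table, of which 6 were higher, 4 lower and 14 not called in FoxF1 cells. Of the members that fell, Cdh1, Cdh3, Celsr1 and Pcdh1 had none, so their promoters were not read. Cdh2, Cdh13, Cdh17, Pcdh11x and the Pcdhb genes had none either. The 3 protocadherins with a promoter and the largest rises and the flamingo cadherin with the larger fall are printed, with every match to the motifs searched in capitals.

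Pcdh19: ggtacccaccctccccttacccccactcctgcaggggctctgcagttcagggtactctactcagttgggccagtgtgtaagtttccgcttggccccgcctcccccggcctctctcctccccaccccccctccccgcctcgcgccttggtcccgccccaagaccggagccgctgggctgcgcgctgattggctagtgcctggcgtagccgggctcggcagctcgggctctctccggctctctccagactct
Pcdh10: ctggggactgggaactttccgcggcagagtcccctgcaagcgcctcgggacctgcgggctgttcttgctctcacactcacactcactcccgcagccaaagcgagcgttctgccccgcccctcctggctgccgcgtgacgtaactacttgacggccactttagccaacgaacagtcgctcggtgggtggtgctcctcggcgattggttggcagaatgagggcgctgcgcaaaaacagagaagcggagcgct
Pcdh18: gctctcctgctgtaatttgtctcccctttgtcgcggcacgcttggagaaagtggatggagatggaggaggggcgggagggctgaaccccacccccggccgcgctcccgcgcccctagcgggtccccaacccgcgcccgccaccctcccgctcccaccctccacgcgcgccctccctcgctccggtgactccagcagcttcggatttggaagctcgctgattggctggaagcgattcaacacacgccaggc
Celsr2: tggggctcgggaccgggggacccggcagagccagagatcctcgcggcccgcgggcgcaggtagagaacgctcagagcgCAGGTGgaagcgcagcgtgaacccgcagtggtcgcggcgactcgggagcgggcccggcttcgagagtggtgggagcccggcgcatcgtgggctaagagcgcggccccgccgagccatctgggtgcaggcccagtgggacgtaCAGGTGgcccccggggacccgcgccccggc

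These are chrX:133688994-133689243 on the minus strand, chr3:45378148-45378397 on the plus strand, chr3:49757317-49757566 on the minus strand and chr3:108415580-108415829 on the minus strand. Both strands were searched for CACCTG, the E-box bound by Snail and ZEB repressors, for GTAAACA, a forkhead motif, and for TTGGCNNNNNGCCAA, the palindromic NFI motif. The E-box was present in 17.1% of 27025 promoters of that length, the forkhead motif in 3.09% and the NFI motif in 0.0407%. The E-box was found in 0 of the 6 members that were higher, 2 of the 4 that were lower (Celsr2 with 2 matches and Fat1 with 1) and 2 of the 14 not called. No promoter of the 24 held the forkhead or the NFI motif. A match describes these letters only, and the counts are too small to read against the share in all promoters. All 4 printed promoters were rich in CpG, with 16 in Pcdh19, 22 in Pcdh10, 23 in Pcdh18 and 32 in Celsr2, where the median promoter had 6. The other members that were higher had 22 in Cdh24, 18 in Pcdh9 and 11 in Fat4. Members not called ranged from 2 in Cdh10 to 30 in Cdh22. The other members that fell had 2 in Fat1, 3 in Fat2 and 7 in Pcdh7. Whether CpG content differed between called and other members was not tested.

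Clustered protocadherins are related genes in tandem arrays on chromosome 18, from which single neurons express random combinations. Of 22 tested, 21 were beta genes, and 5 of these were higher and 0 lower in FoxF1 cells, where 20.8% of all genes were higher and 19.1% lower. NFI-C2 cells had 3 higher and 0 lower, where 9.17% and 12.5% of all genes were. All beta genes called against wild type lay in the last 6 of the array, Pcdhb17 to Pcdhb22, between 37644449 and 37681073 on chromosome 18 (NCBIM37). Pcdhb22, the last, was 0.62, 0.70 and 0.40 on the FoxF1 arrays, 0.00, -0.01 and 0.13 on the NFI-C2 arrays, and -0.82, -0.53 and -0.85 on the wild type arrays. Wild type arrays were lowest and FoxF1 arrays highest, with no overlap. It was 2.48-fold higher in FoxF1 cells (limma adjusted p = 3.695e-05) and 1.71-fold higher in NFI-C2 cells (limma adjusted p = 0.001898).

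Pcdhb21 had the same order, at 0.47, 0.51 and 0.43 on the FoxF1 arrays, 0.03, -0.08 and 0.00 on the NFI-C2 arrays, and -0.81, -0.75 and -0.82 on the wild type arrays. It was 2.41-fold higher in FoxF1 cells (limma adjusted p = 1.569e-07) and 1.72-fold higher in NFI-C2 cells (limma adjusted p = 1.312e-05). Pcdhb20 was 1.47-fold and 1.38-fold higher (limma adjusted p = 0.00119 and 0.006975), and its FoxF1 and NFI-C2 arrays overlapped. Pcdhb19 was 1.79-fold higher in FoxF1 cells (limma adjusted p = 0.0009974) and Pcdhb17 was 1.38-fold higher (limma adjusted p = 0.002539). In NFI-C2 cells these 2 differed by 0.21 (95% interval -0.08 to 0.50) and 0.19 (95% interval -0.0045 to 0.38) and were not called, though Pcdhb17 was called without FoxF1 replicate 3 (adjusted p = 0.0449). Both were called under quantile normalization, at 0.66 for Pcdhb19 (adjusted p = 0.0157) and 0.51 for Pcdhb17 (adjusted p = 0.0235). The differences of Pcdhb20, Pcdhb21 and Pcdhb22 then became 1.28, 2.57 and 2.45 in FoxF1 cells and 1.26, 2.27 and 2.15 in NFI-C2 cells.

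Pcdhb18, which lies among them, differed by 0.26 in FoxF1 cells (95% interval -0.04 to 0.56) and was not called. Of the beta genes before Pcdhb17, none was called against wild type, and Pcdhb12 was 0.13 lower in FoxF1 than in NFI-C2 cells on the log2 scale (limma adjusted p = 0.0311), a call lost on leaving out any single array other than NFI-C2 replicate 1, with a difference of -0.10 without NFI-C2 replicate 3 (adjusted p = 0.0999). Pcdhb12 became called in NFI-C2 cells against wild type without NFI-C2 replicate 1 (difference 0.18, adjusted p = 0.000461) and with quantile normalization (adjusted p = 0.0394). The array annotation marks the clusters of all 61 members as unique in cross-hybridization, yet beta genes are similar enough that their signals may not be separate. Pcdhga12, the gamma entry, names 23 symbols in 1 cluster and was not called. In all, 25 of the 61 members were called in at least 1 of the 3 comparisons, and among the other 36 no difference exceeded in size the 0.26 of Pcdhb18.

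**Figure D4:**
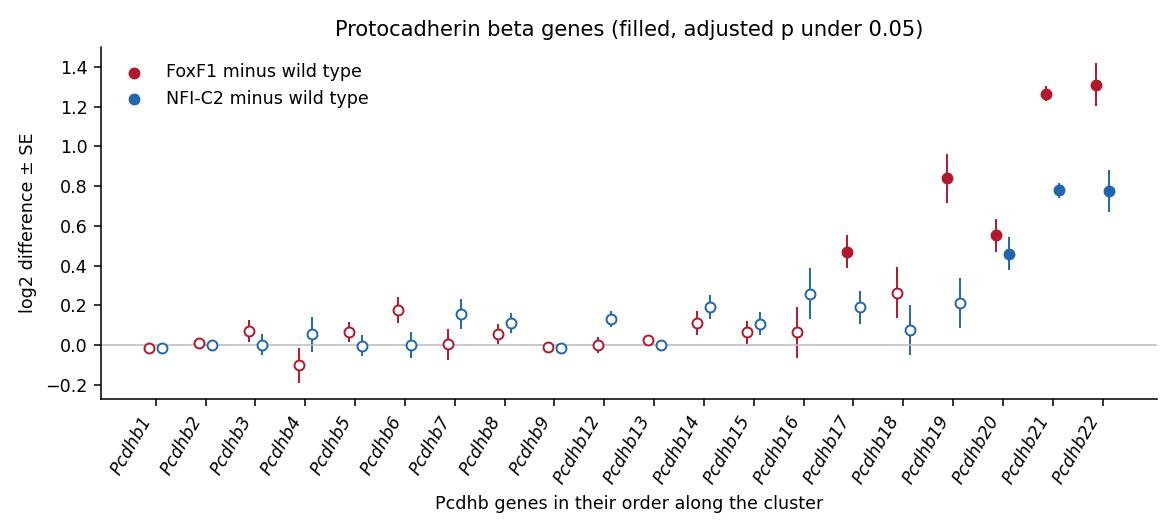
Log2 difference ± SE (y axis) of 20 protocadherin beta genes in their order along the cluster (x axis), FoxF1 minus wild type and NFI-C2 minus wild type, filled where the adjusted p was under 0.05. Pcdhb11, whose row lies on another chromosome, is not drawn. Differences reach 1.31 for Pcdhb22 in FoxF1 cells, and the filled points lie from Pcdhb17 to Pcdhb22.

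Genes that work with these cadherins were read from a list of 30 that covers catenins, nectins, junctional phosphatases and planar polarity. In FoxF1 cells 5 were higher and 17 lower, where 20.8% of all genes were higher and 19.1% lower, with a median log2 difference of -0.54 against 0.01 over all genes. NFI-C2 cells had 6 higher and 11 lower, where 9.17% and 12.5% of all genes were, with a median of 0.00. The largest differences in FoxF1 cells were falls. Jup, the plakoglobin that binds classical and desmosomal cadherins, fell by 3.78 on the log2 scale, and Plekha7, which links p120-catenin to microtubules, fell by 3.16. Nectin1 fell by 3.12 and Nectin4 fell by 2.27, both being immunoglobulin-like receptors of adherens junctions. Those 4 falls had limma adjusted p-values of 7.243e-07 or less. Nectin3 of the same family rose by 1.52 (limma adjusted p = 7.876e-06), and Nectin2, at -0.05, was not called. The other rises past 1.5-fold were of Ptprm, a receptor phosphatase of cell contacts, by 1.78, of Vcl, the vinculin that joins catenins to actin, by 1.61, and of Ctnnal1, a relative of alpha-catenin, by 0.84. Nectin2, Nectin3, Ptprm, Vcl, Ctnnal1 and the 3 catenins at the tail of E-cadherin were named after their values were seen. Ctnnd1, the p120-catenin, fell by 1.72 in FoxF1 cells. Ctnna1, the alpha-catenin, fell by 1.06 and Ctnnb1, the beta-catenin, fell by 0.77.

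In NFI-C2 cells Ctnnd2, the delta-catenin known from neurons, was 1.46 higher on the log2 scale (limma adjusted p = 1.423e-05), and Vangl2, a core planar polarity protein, 0.69 higher (limma adjusted p = 0.001552). Afdn, the afadin that ties nectins to actin, fell by 0.67 (limma adjusted p = 0.0003326), and Ptprk, a receptor phosphatase of cell contacts, fell by 0.67 (limma adjusted p = 2.244e-05). Ctnnd1 fell by 0.55 in these cells, whereas Ctnna1 and Ctnnb1 differed by 0.02 and 0.00 and were not called.

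**Figure D5:**
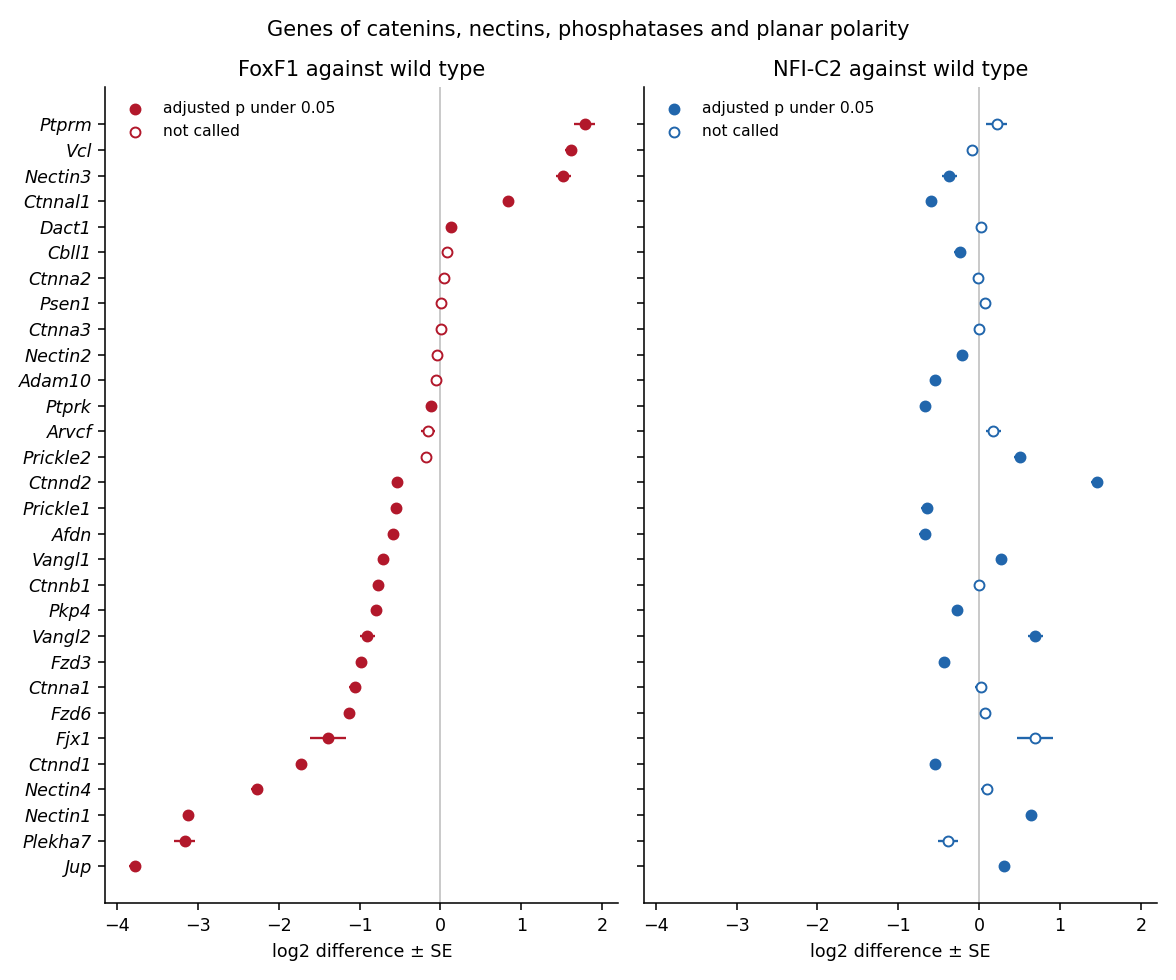
Log2 difference ± SE (x axis) of 30 genes of catenins, nectins, phosphatases and planar polarity, FoxF1 against wild type at the left and NFI-C2 against wild type at the right, filled where the adjusted p was under 0.05. FoxF1 differences run from -3.78 for Jup to 1.78 for Ptprm, and Ctnnd2 is highest in NFI-C2 cells at 1.46.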

How the data were processed

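RNA of HC11 cells was measured on 9 Affymetrix Mouse Gene ST arrays, 3 per group. The deposited log2 values were made by the authors with RMA, per the labels, and hybridized and scanned at a core facility. Version and settings of RMA are not given in the sources used here. All 28815 transcript clusters are centred to a median of 0, and the centring leaves no expression level. A second deposited table held the same log2 values to within 5.0e-08. Sheets of the authors' own p-values from an analysis of variance were not used.

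The gene symbol was the first in the annotation, clusters with 9 equal values (within 1e-06) were left out, and of the others the one with most probes was kept for each symbol, leaving 18856 genes. Group means were compared with limma 3.58.1 in R 4.3.3 (two-sided, eBayes with no trend, residual degrees of freedom 6, prior degrees of freedom 1.31), with Benjamini-Hochberg adjustment over all genes and a threshold of 0.05. The study's criterion of 1.5-fold was added where stated. The 95% intervals use the moderated SE and cover 1 gene at a time. An exact permutation test of 3 against 3 arrays cannot give a two-sided p below 0.1 and was not used. The number of arrays limits the precision. The fit was tested on simulated data.

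Members and lists were chosen with earlier results of these data known. Named are all type I classical, Fat, Dachsous and flamingo genes tested, up to 12 other members per comparison by size among those called with 1.5-fold and no overlap of arrays, and up to 4 called genes of the list of 30 per comparison. Cdh17, Cdh18, Cdh24, Pcdh9, Pcdhb12, Pcdhb17, Pcdhb18 and Pcdhb20 and a few others were named after their values were seen, to account for all members called. Whether replicate numbers pair the arrays was checked on deviations from group means over all genes. Same-numbered arrays all correlated positively, at 0.00027 to 0.182, with 7 of 9 pairs at 0.1 or less. Arrays of different numbers correlated at -0.193 to 0.085. Whether same-numbered arrays shared a batch was not tested. The main fit did not use the numbers as pairs, and a fit with replicate blocks was run as an alternative. The alternatives run were another scaling, other choices of cluster, the samples in the fit, the prior, and leaving out each array. Tables were read with Python 3.11.15 and pandas 2.3.3.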

Additional observations from a re-analysis of the deposited data

How the results depend on the processing

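Over 19 alternatives, the counts of members called changed by over 1.5 times once, from 14 higher in FoxF1 than in NFI-C2 cells to 8 when the 1.5-fold criterion was added. Leaving out 1 array at a time gave 14 to 16 members higher and 8 to 9 lower in FoxF1 against wild type cells, 7 to 9 higher and 4 to 6 lower in NFI-C2 against wild type cells, and 12 to 16 higher and 9 to 10 lower in FoxF1 against NFI-C2 cells. Of 60 calls of single members, adding the 1.5-fold criterion lost 17. Quantile normalization lost 7, a fit of the compared groups alone 6, and leaving out 1 array 2 to 5. A robust prior lost 2, and leaving out genes with tied lowest values lost 1 of 59. Quantile normalization, which makes the spread of all arrays equal, also added the NFI-C2 calls of Pcdhb12, Pcdhb17 and Pcdhb19, for 10 members higher where 7 had been, and brought Cdh1 in FoxF1 cells to -2.93, where it had been -5.82. Subtracting the array median, averaging clusters, keeping clusters of 1 symbol, and keeping clusters on the gene's own chromosome (chosen after seeing the data) lost 0. The replicate block lost 1 call, that of Pcdh11x in NFI-C2 against wild type cells at -0.32 (adjusted p = 0.0933). Samples share only a number, and not every array correlated best with the arrays of its own number. Lost calls were of Cdh13, Pcdh11x, Cdh24, Pcdhb12, Pcdhb17, Pcdhb19 and Pcdhb22, apart from those lost to the fold criterion. Values that changed sign lay near 0 and were not called. Fat3 in FoxF1 against NFI-C2 cells was 0.013 with clusters averaged and -0.0316 to 0.0268 on leaving out 1 array, Pcdh10 in NFI-C2 against wild type cells was -0.0295 to 0.12, and Cdh24 in that comparison was -0.0628 to 0.0108. A scan or hybridization batch could not be added, since the array information used here gives none. Centred values limit what can be said of genes that may lie at background, and ties lower the spread within groups. Leaving out genes with tied lowest values kept genes tied at other values, such as Cdh3 on the wild type arrays.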
